A study of Mus musculus with 64 samples.

Results

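Brown adipose tissue (BAT) of WT mice late in the light phase (zeitgeber time, ZT, 10) was compared with the same depot late in the dark phase (ZT 22), across all genes of the deposited count table. The comparison used 8 of the 64 samples of the series, 4 at ZT 10 and 4 at ZT 22, chosen by their labels for depot, genotype and time point. The series holds BAT and epididymal white adipose tissue (eWAT) from WT mice and from FANKO mice, which lack *Nampt* in fat, at ZT 6, ZT 10, ZT 18 and ZT 22. All mice were males of 2 to 4 months from the NamptTM1Jtree line, whose *Nampt* gene carries loxP sites around exon 3, crossed with Adiponectin-Cre mice; the WT mice were littermates without Cre. Adiponectin-Cre acts in adipocytes, so the other cells of a FANKO depot keep *Nampt*. The mice were held at room temperature on chow, with ZT 0 at lights on, and the animals of different time points are different mice. The labels do not say whether the 4 samples of a group came from separate animals, and the spread between them may then be partly technical.

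BAT burns lipid and glucose for heat. Its brown adipocytes hold UCP1, which uncouples respiration from ATP synthesis, and they answer to noradrenaline through beta-adrenergic receptors and cyclic AMP. The circadian clock of each cell is a feedback loop in which BMAL1 (encoded by *Arntl*) and CLOCK bind E-box sequences and drive the Per and Cry genes, whose proteins hold back their own activators. The receptors REV-ERB alpha and beta (*Nr1d1* and *Nr1d2*) bind ROR elements (ROREs) and repress *Arntl*, and DBP, TEF and HLF act with their opponent NFIL3 on D-boxes. Mice feed and move mostly in the dark phase, so the times compared also differ in feeding and activity.

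Total counts assigned to genes ranged from 9307198 to 18777819 at ZT 10 and from 8299625 to 22842220 at ZT 22, and genes of the mitochondrial genome took 19.9 to 34.3% and 18.4 to 40.7% of them. Values below are CPM, counts scaled to a common library size, after TMM scaling, which takes most genes as unchanged. Of the 8 brown adipocyte markers, all were detected, with summed levels of 8390 to 11600 CPM at ZT 10 and 6600 to 8140 CPM at ZT 22. Such sums weigh the most abundant markers most. The median log2 difference of the 8 was 0.02, and 1 passed the test below as higher at ZT 22 and 0 as lower (1 without replicate 4 at ZT 22). Markers of skeletal muscle, which lies beside this depot, differed between the libraries. Their summed level was 72.4, 2.11, 41.3 and 507 CPM in replicates 1 to 4 at ZT 10 and 2.37, 3.31, 2.84 and 18.4 CPM at ZT 22. Of the 15 muscle markers, 0 to 8 had no count in a library of either time point, and the list's median log2 difference was -3.87, yet 0 of the 15 passed the test (2 without replicate 2 at ZT 10 and 1 without replicate 4 at ZT 22). Adding the muscle score to the model as a covariate, an alternative chosen after the data had been seen, left 1135 calls in place of 1470, of which 1089 were shared. The part of muscle RNA in single results was not tested beyond that. In whole tissue, fewer cells of a type and less RNA per cell cannot be told apart.

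Of 20249 genes tested, 843 (4.16%) were higher and 627 (3.1%) were lower at ZT 22 than at ZT 10 at 0.01 false discovery rate (FDR) in edgeR's quasi-likelihood test, which also gives every adjusted p below (Benjamini-Hochberg over all genes tested). The difference exceeded 2-fold for 284 of the higher and 164 of the lower genes, and 4-fold for 70 and 54. The median log2 difference was 0.80 among the higher, -0.64 among the lower and 0.00195 over all genes tested. The 4 values at ZT 22 all lay above the 4 values at ZT 10 for 762 of the 843 higher genes, and all below them for 577 of the 627 lower genes. The calls rest on these same samples, so this separation is no further evidence. The share without overlap over all genes tested was not counted. Protein-coding genes made up 788 of the higher and 577 of the lower genes.

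The largest increase and the largest decrease by the rule for named genes were both in clock genes. Of 25 clock genes tested, 6 were higher and 9 were lower at ZT 22, beside 4.16% and 3.1% over all genes, the shares against which each list below is to be read; the 3 activators were all higher, and 4 of 6 repressors were lower. *Dbp*, which encodes a D-box activator, was lower by the most: it had 46.8, 46.3, 66.7 and 62.3 CPM at ZT 10 and 1.78, 2.99, 2.01 and 2.69 CPM at ZT 22. The groups were far apart, with a 23.5-fold difference of the means (log2 -4.48 ± 0.29 SE, adjusted p = 2e-17). *Arntl* was its mirror image, at 3.03, 2.22, 1.66 and 1.13 CPM at ZT 10 and 58.3, 49.5, 43.3 and 36.8 CPM at ZT 22, 23.4-fold higher (log2 4.48 ± 0.30, adjusted p = 9.4e-17). *Npas2*, a paralog of *Clock*, was nearly silent at ZT 10, with 0.0778, 0.528, 0 and 0 CPM, and reached 4.75, 4.44, 3.85 and 2.63 CPM at ZT 22 (log2 4.66 ± 0.62, adjusted p = 8.6e-08). At such low counts the fitted size depends on the prior count, and without replicate 2 at ZT 10 it was 6.64. *Clock*, the third activator, rose much less, from 123 ± 5.2 to 201 ± 17.4 CPM (SD, n = 4 at each time; log2 0.71 ± 0.10, adjusted p = 1.2e-07), with no overlap of the groups.

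Promoters of some clock genes, shown because they hold the letters, illustrate the sequences that these factors read. Sequences are from RefSeq on GRCm38.p6, 5′ to 3′ on the gene's strand. *Ciart*, which encodes a repressor of the loop, had 3 E-boxes (CACGTG, in capitals) in the 250 bases before its start site, chr3:95882229-95882478 on the minus strand, at -116, -58 and -44 from the start:
Ciart: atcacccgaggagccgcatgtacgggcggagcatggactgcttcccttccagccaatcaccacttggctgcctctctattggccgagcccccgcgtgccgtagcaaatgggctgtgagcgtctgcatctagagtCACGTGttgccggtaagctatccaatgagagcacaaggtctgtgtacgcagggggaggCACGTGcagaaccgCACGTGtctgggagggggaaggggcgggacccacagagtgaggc
*Per3* held 2 D-boxes (TTATGTAA, in capitals) in the 250 bases before its start, chr4:151044666-151044915 on the minus strand:
Per3: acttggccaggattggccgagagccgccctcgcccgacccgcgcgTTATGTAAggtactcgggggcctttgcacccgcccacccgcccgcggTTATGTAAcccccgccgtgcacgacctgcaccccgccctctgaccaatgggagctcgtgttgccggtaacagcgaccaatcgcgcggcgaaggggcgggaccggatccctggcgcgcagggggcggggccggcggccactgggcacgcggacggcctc
*Arntl* had 1 RORE (TAGGTCA, in capitals) inside the transcript, beginning 31 bases from its start, shown within 30 bases at chr7:113207530-113207559 on the plus strand:
Arntl: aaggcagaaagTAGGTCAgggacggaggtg
These matches are letters in a sequence, and binding was not measured.

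Other windows with an E-box belong to genes that were lower (*Per1*) and to genes that were higher at ZT 22 (*Cry1*, *Elovl5*). Not every clock gene had a match: the windows of *Dbp*, *Nr1d1*, *Nr1d2* and *Cry2* held 0 E-boxes. That of *Nfil3* held 1 RORE, and those of *Npas2* and *Clock* held 0. *Ciart* had 12.9, 10.1, 20.5 and 17.4 CPM at ZT 10 against 1.78, 1.78, 3.01 and 2.33 CPM at ZT 22 (log2 -2.79 ± 0.28, adjusted p = 4.5e-11). *Per3* had 162, 177, 194 and 170 CPM at ZT 10 and 26.7, 27.4, 31.4 and 45.6 CPM at ZT 22, a 5.36-fold difference (log2 -2.41 ± 0.19, adjusted p = 2.1e-14). *Per2* stood at 65.0, 55.6, 52.3 and 38.3 CPM and then at 10.7, 10.8, 9.87 and 7.77 CPM (log2 -2.45 ± 0.32, adjusted p = 4.6e-08). *Per1* was 4.65-fold lower (log2 -2.23 ± 0.41, adjusted p = 5.4e-05), its library 2 at ZT 22 lying below the other three. *Cry1*, a repressor that peaks later than the Per genes in mouse tissues, went the other way, at 14.3, 16.5, 16.4 and 12.4 CPM at ZT 10 and 51.8, 45.5, 40.8 and 40.3 CPM at ZT 22 (log2 1.57 ± 0.14, adjusted p = 3.4e-12). *Cry2* was not called (log2 0.23 ± 0.14, adjusted p = 0.344).

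REV-ERB beta and the D-box factors were low late in the dark. *Nr1d2* had 161, 168, 188 and 187 CPM at ZT 10 and 13.8, 19.9, 15.2 and 30.9 CPM at ZT 22, 8.83-fold lower (log2 -3.10 ± 0.25, adjusted p = 5.2e-14). *Nr1d1* fell less, from 29.2, 24.6, 50.4 and 31.8 CPM to 13.6, 20.2, 17.4 and 14.8 CPM (log2 -1.04 ± 0.25, adjusted p = 0.0027), and its call was lost without replicate 3 at ZT 10 (adjusted p = 0.0438), replicate 1 at ZT 22 (0.0152) or replicate 4 at ZT 22 (0.0121). The transcript of *Nr1d1* overlaps that of *Thra* on the other strand, and the strand setting of the counting is not stated. *Tef* and *Hlf* were lower by 1.98 and 1.34 on the log2 scale (SE 0.19 and 0.17, adjusted p = 2e-11 and 6.6e-08), while *Nfil3*, the repressor that competes with them, was higher by 1.27 (SE 0.27, adjusted p = 0.000669). *Bhlhe40*, an E-box repressor, was higher by 1.22 (SE 0.31, adjusted p = 0.00453), though its replicate 4 at ZT 22 (138 CPM) lay near the highest ZT 10 value (135 CPM) and 6 of the 8 single libraries, left out, took the call away (adjusted p = 0.0105 to 0.0368). Its paralog *Bhlhe41* overlapped between the times (adjusted p = 0.634). The ROR receptors *Rora* and *Rorb*, the casein kinases *Csnk1d* and *Csnk1e* and the ubiquitin ligase genes *Fbxl21* and *Btrc*, which control the stability of clock proteins, had log2 differences between -0.25 and 0.51, and 0 of these 6 were called.

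**Figure D1:**
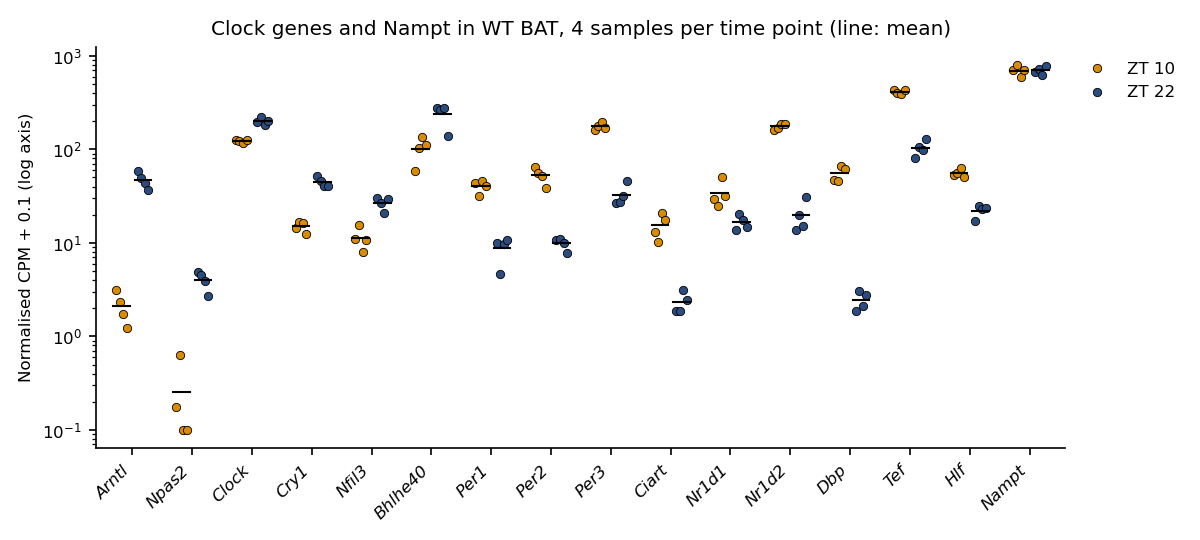
Normalised CPM (log axis, 0.1 added) of 15 called clock genes and Nampt in the 8 WT BAT samples, one point per sample with the mean of 4 as a line. The ZT 22 points of Arntl lie at 36.8 to 58.3 CPM above ZT 10 points of 1.13 to 3.03 CPM, those of Dbp lie below, and those of Nampt mix.

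*Nampt*, the gene for the rate-limiting enzyme of the NAD salvage pathway and the target of the knockout, did not separate the times. It had 699, 793, 588 and 705 CPM at ZT 10 and 666, 716, 620 and 788 CPM at ZT 22, a log2 difference with a 95% interval of -0.26 to 0.27. The means at ZT 6 and ZT 18 were 502 and 987 CPM. Of the 25 NAD genes tested, 1 was higher, a share near the 4.16% over all genes, and 3 were lower. *Nmnat1*, the nuclear enzyme that makes NAD from NMN, rose from 20.5, 20.6, 20.4 and 20.1 CPM to 27.7, 32.1, 32.8 and 37.1 CPM (log2 0.67 ± 0.12, adjusted p = 7.9e-05). *Slc25a51*, the carrier that brings NAD into mitochondria, was lower by 0.51 (SE 0.12, adjusted p = 0.00116), and *Nnmt*, which methylates nicotinamide, by 1.40 (SE 0.31, adjusted p = 0.001). *Nadsyn1*, the last enzyme of the route from nicotinic acid, was lower by 0.50 (adjusted p = 0.00467), and 5 of the 8 libraries, left out singly, ended that call (adjusted p = 0.0103 to 0.0668).

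The largest increases that met a level of 1 log2 CPM and showed no overlap included *Arntl*, *E2f2*, *Bsn*, *Tubb2a*, *Dtx4*, *Tshr*, *Maff*, *Prune2*, *Mlph*, *Scd2* and *Neurl1a*. *E2f2*, which encodes a transcription factor of the cell cycle, had 2.33, 3.70, 2.40 and 1.55 CPM at ZT 10 and 47.3, 56.3, 44.7 and 31.7 CPM at ZT 22, 18.03-fold higher (log2 4.15 ± 0.30, adjusted p = 1.5e-15). Of 37 genes of cell proliferation tested, 3 were higher and 2 lower: beside *E2f2* these were *Cdkn1a*, which encodes the cell cycle inhibitor p21 (log2 1.83, adjusted p = 9.5e-05), *Mcm2*, and, lower, the kinase genes *Cdk2* (log2 -0.74, adjusted p = 7.9e-05) and *Wee1* (log2 -0.77, adjusted p = 0.00317). *Dtx4*, for a ubiquitin ligase of the Notch pathway, had 5.29, 7.92, 5.96 and 5.37 CPM at ZT 10 and 55.6, 54.0, 59.4 and 51.0 CPM at ZT 22 (log2 3.16 ± 0.25, adjusted p = 4.1e-14), and all 4 dark libraries agreed closely. In *Bsn* (log2 4.00), *Tubb2a* (3.18) and *Mlph* (2.67) they did not. *Bsn*, for a presynaptic scaffold protein, had 19.6, 18.96, 20.1 and 3.82 CPM at ZT 22, and *Tubb2a*, a beta-tubulin gene with close paralogs that could share reads, had 88.7, 39.9, 35.8 and 11.9 CPM, in each case with replicate 4 lowest and still above every ZT 10 library; without replicate 1 at ZT 22 the *Tubb2a* difference was 2.59. *Dapk1*, a kinase gene of cell death and autophagy, rose 3.37-fold (log2 1.76 ± 0.14, adjusted p = 2.1e-14) and *Dhrs3*, which reduces retinal to retinol, 3.12-fold (log2 1.64 ± 0.13, adjusted p = 4.5e-14).

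The largest decreases by the same rule were in *Dbp*, *Acot1*, *Mt2*, *Nr1d2*, *Ciart*, *Cntfr*, *Igfals*, *Per2*, *Slc4a4*, *Per3*, *Acot4* and *Gk*. *Acot1*, a cytosolic acyl-CoA thioesterase with near-identical paralogs beside it on chromosome 12, had 40.98, 34.9, 38.7 and 33.8 CPM at ZT 10 and 2.08, 1.61, 1.67 and 4.84 CPM at ZT 22 (log2 -3.76 ± 0.48, adjusted p = 3.9e-08; -4.39 without replicate 4 at ZT 22), and the peroxisomal enzyme gene *Acot4* fell 5.20-fold (adjusted p = 3.8e-08). *Slc4a4*, which encodes a sodium bicarbonate cotransporter, went from 985, 973, 902 and 1083 CPM to 145, 203, 152 and 233 CPM (log2 -2.42 ± 0.29, adjusted p = 1.1e-08). *Cntfr*, the receptor gene for ciliary neurotrophic factor, was lower by 2.57 (SE 0.37, adjusted p = 7.6e-07), and *Igfals*, whose protein stabilises IGF complexes in blood, by 2.56 (SE 0.51, adjusted p = 0.00026).

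Of 45 genes for heat shock proteins and their cochaperones, 14 were higher at ZT 22 and 0 were lower, and 36 of the 45 had a positive difference, with a median of 0.28 beside 0.00195 over all genes. Leaving out single libraries gave 12 to 15 higher. The called members were mainly the cytosolic HSP90 and HSP70 machinery, which folds signalling proteins and steroid receptors. *Hspa8*, the constitutive HSP70, had 370, 367, 195 and 249 CPM at ZT 10 and 1211, 991, 864 and 799 CPM at ZT 22 (log2 1.71 ± 0.16, adjusted p = 6.3e-12). *Hsp90aa1*, the inducible HSP90, had 97.6, 95.7, 105 and 97.6 CPM and then 200, 305, 308 and 269 CPM (log2 1.45 ± 0.14, adjusted p = 2.4e-11). *Stip1*, the adaptor between both chaperones, went from 41.8, 42.1, 45.7 and 42.8 CPM to 89.7, 109, 113 and 107 CPM (log2 1.28 ± 0.10, adjusted p = 4.5e-14), and *Hspa4l*, a nucleotide exchange factor of the HSP110 class, rose 3.08-fold (log2 1.63 ± 0.12, adjusted p = 4e-15). Its relative *Hsph1*, named after its values were seen, rose by 1.89 (SE 0.21, adjusted p = 6.9e-10).

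The small heat shock protein gene *Hspb1* had the largest called difference of the list. It was also named after its values were seen, since 2 heat shock elements (GAANNTTC, in capitals) lie in the 250 bases before its start, chr5:135887669-135887918 on the plus strand:
Hspb1: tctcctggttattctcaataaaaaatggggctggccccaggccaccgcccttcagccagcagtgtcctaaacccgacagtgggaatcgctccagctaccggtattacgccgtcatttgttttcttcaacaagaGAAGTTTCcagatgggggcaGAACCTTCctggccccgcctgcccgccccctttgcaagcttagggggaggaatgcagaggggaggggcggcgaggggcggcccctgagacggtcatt
These matches too are only letters, and binding was not measured. The windows of *Hspa4l* and *Stip1* held 0 such matches and each window of *Hsph1* held 1. The letters were in 7.22% of the higher and 7.23% of all tested genes with a window. *Hspb1* had 12.2, 12.7, 11.4 and 12.7 CPM at ZT 10 and 65.0, 63.9, 55.2 and 66.1 CPM at ZT 22, a 5.10-fold difference (log2 2.36 ± 0.24, adjusted p = 4.1e-11) with little spread within either group. In the endoplasmic reticulum, 0 of 22 chaperone and unfolded protein response genes were higher and 1 was lower, the cochaperone gene *Dnajb9* (log2 -1.28 ± 0.17, adjusted p = 7.3e-08). Without replicate 2 at ZT 10, 1 of these 22 was higher. *Cirbp*, an RNA-binding protein induced by cold, was lower at 9.79, 10.6, 13.9 and 14.04 CPM against 18.9, 18.6, 27.7 and 23.3 CPM (log2 -0.87 ± 0.15, adjusted p = 3.4e-05).

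Of 27 genes tested for receptors and enzymes linked to cyclic nucleotide signaling, 4 were higher and 8 were lower, and all 4 of the higher genes were receptors while 5 of the 8 lower ones were enzymes. Without replicate 2 at ZT 22 the counts were 3 and 5. *Tshr*, the receptor for thyroid-stimulating hormone, which couples to cyclic AMP, had 5.75, 5.39, 5.63 and 5.51 CPM at ZT 10 and 57.7, 45.9, 50.3 and 32.2 CPM at ZT 22, an 8.36-fold difference (log2 3.05 ± 0.20, adjusted p = 2e-17). Every dark library lay far above the light ones, which hardly varied. *Adrb3*, the main beta-adrenergic receptor of rodent adipocytes, had 94.3, 108, 69.9 and 101 CPM at ZT 10 and 163, 230, 159 and 210 CPM at ZT 22 (log2 1.03 ± 0.20, adjusted p = 0.00012). An antisense transcript, *Gm45470*, overlaps it, and *Nrg4*, *Pfkp*, *Slc7a10* and *Dbp* also overlap a gene on the other strand. *Npr1*, the natriuretic peptide receptor, which makes cyclic GMP, was higher by 0.91 (SE 0.13, adjusted p = 6.9e-07). *Ffar4*, a receptor for long-chain fatty acids, was lower, at 5.78, 7.50, 5.69 and 9.74 CPM against 25.4, 23.9, 33.4 and 36.6 CPM (log2 -2.002 ± 0.27, adjusted p = 1.2e-07). *Prkar1a*, a regulatory subunit of protein kinase A, fell by 0.49 (SE 0.09, adjusted p = 8.6e-05).

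Of 28 genes of brown adipocyte identity and thermogenesis, 2 were higher and 4 were lower, and 12 of the 28 differences were positive (median -0.18). Of the 2 higher genes, 1 was among the list's 13 transcriptional regulators and is not named here. *Gk*, the glycerol kinase gene, had 486, 485, 337 and 545 CPM at ZT 10 and 99.8, 96.7, 81.5 and 96.4 CPM at ZT 22 (log2 -2.31 ± 0.38, adjusted p = 8e-06). *Nrg4*, a factor that brown adipocytes secrete, had 352, 345, 329 and 376 CPM and then 117, 124, 127 and 140 CPM (log2 -1.46 ± 0.16, adjusted p = 6.8e-10). *Irf4*, a transcription factor of the thermogenic programme, was lower by 1.37 (SE 0.24, adjusted p = 3.3e-05). *Dio2*, which makes active thyroid hormone in the tissue, was lower too, at 46.9, 63.5, 29.1 and 14.8 CPM against 158, 202, 159 and 148 CPM (log2 -2.12 ± 0.48, adjusted p = 0.00116). *Ucp1* was not called: its 4 dark values, 3369 to 4502 CPM, all lay below its 4 light values, 4694 to 7370 CPM, with a log2 difference of -0.57 ± 0.39 (95% interval -1.36 to 0.22, adjusted p = 0.422). *Ppargc1a*, the coactivator of mitochondrial genes, overlapped between the times (log2 -0.44 ± 0.27, adjusted p = 0.349). *Dio2*, *Ucp1* and *Ppargc1a* were named after their values were seen. *Fgf21*, a hormone gene that was higher, was barely detected, at 0.106 to 0.282 CPM at ZT 10 and 4.15, 3.31, 1.34 and 0.418 CPM at ZT 22 (adjusted p = 0.000124), and limma-voom did not call it (adjusted p = 0.0609).

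**Figure D2:**
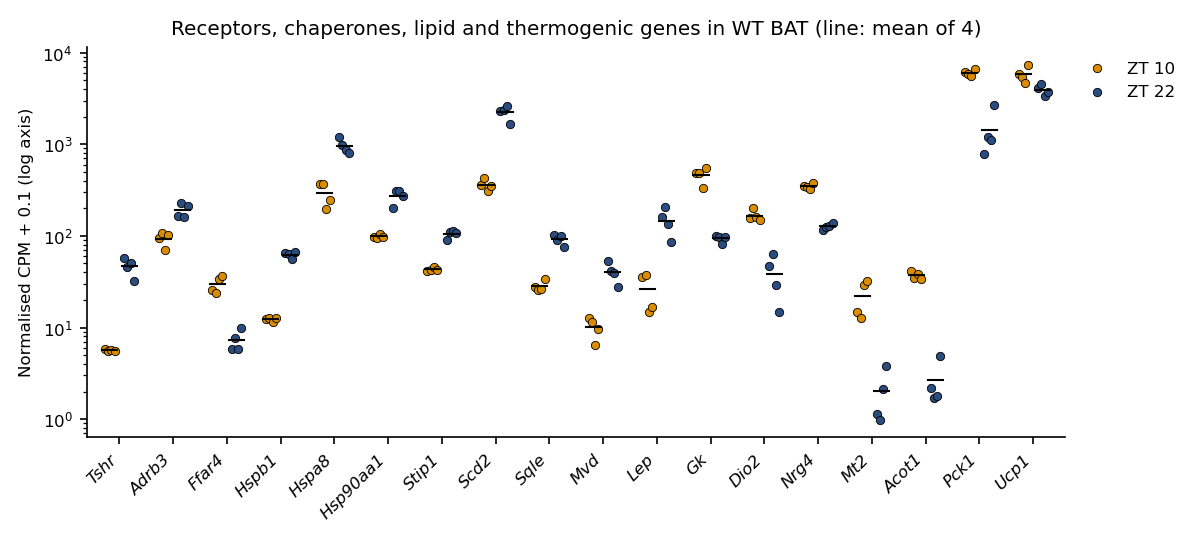
Normalised CPM (log axis, 0.1 added) of 18 genes for receptors, chaperones, lipid enzymes, thermogenesis and secreted factors in the 8 WT BAT samples, one point per sample with the mean of 4 as a line. Tshr is near 5.5 CPM in all ZT 10 samples and at 32.2 CPM or more at ZT 22, whereas Gk, Dio2, Nrg4, Mt2 and Acot1 are lower at ZT 22.

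Of 22 genes of fatty acid synthesis and desaturation, 5 were higher and 0 lower, and 19 of the 22 differences were positive (median 0.35). Leaving out single libraries gave 4 higher each time, as did the muscle covariate, and 1 was lower without replicate 3 at ZT 10 or replicate 1 at ZT 22. *Scd2*, a stearoyl-CoA desaturase, had 355, 433, 305 and 346 CPM at ZT 10 and 2289, 2374, 2592 and 1648 CPM at ZT 22, 6.19-fold higher (log2 2.63 ± 0.41, adjusted p = 4.4e-06); its paralogs on chromosome 19 could take part of its reads. *Elovl5*, a fatty acid elongase, rose from 208, 185, 184 and 227 CPM to 401, 396, 417 and 462 CPM (log2 1.06 ± 0.16, adjusted p = 1.6e-06). *Mlxipl*, the gene for the glucose-sensing factor ChREBP, rose 2.10-fold (adjusted p = 8.9e-05) and *Fads1*, a desaturase, 1.48-fold (adjusted p = 0.00057). Of 20 enzymes of cholesterol synthesis, all 20 had positive differences (median 0.69) and 7 were called. *Sqle*, squalene epoxidase, had 27.9, 25.9, 25.9 and 33.3 CPM at ZT 10 and 103, 90.8, 99.3 and 76.1 CPM at ZT 22 (log2 1.71 ± 0.29, adjusted p = 1.6e-05), and *Mvd*, which forms isopentenyl diphosphate, went from 12.5, 11.5, 6.29 and 9.46 CPM to 53.1, 41.5, 39.3 and 27.5 CPM (log2 2.01 ± 0.35, adjusted p = 2.1e-05). *Abca1*, which exports cholesterol, moved the other way (log2 -0.84 ± 0.12, adjusted p = 3.7e-07). With the regulators included, 9 of 30 sterol genes were higher and 2 lower, and without replicate 3 at ZT 10 the 9 became 5.

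Of 22 genes of triglyceride synthesis, 2 were higher and 5 were lower. *Gpat4*, a glycerol-3-phosphate acyltransferase, had 764, 679, 849 and 856 CPM at ZT 10 and 214, 226, 187 and 286 CPM at ZT 22 (log2 -1.78 ± 0.18, adjusted p = 3.4e-11), and the other acyltransferases of this step, *Gpat3* (log2 -1.22) and *Gpam* (-0.95), were lower as well (adjusted p = 9.7e-06 and 1.1e-05). *Acsl1*, which activates fatty acids, fell from 4450 to 5031 CPM at ZT 10 to 2036 to 2576 CPM at ZT 22 (adjusted p = 4.4e-05). Of 27 genes of lipolysis, lipid droplets and lipoprotein lipase, 2 were higher and 5 lower. *Abhd5*, the activator of the triglyceride lipase ATGL, had 198, 233, 152 and 213 CPM and then 87.3, 97.4, 85.3 and 113 CPM (log2 -1.05 ± 0.15, adjusted p = 9e-07). *Lpl*, lipoprotein lipase, was lower by 0.87 (SE 0.18, adjusted p = 0.00032) and *Fitm2*, a protein of droplet formation, by 0.72 (SE 0.11, adjusted p = 1.8e-06), while the droplet coat gene *Plin3* was higher by 0.91 (SE 0.15, adjusted p = 7.1e-06). The 5 lower genes became 3 without replicate 1, 2 or 4 at ZT 10 or replicate 3 at ZT 22, and with the muscle covariate.

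Of 27 genes of fatty acid oxidation, 0 were higher and 4 were lower, *Acot1* among them. *Ehhadh*, the bifunctional enzyme of peroxisomal oxidation, had 323, 309, 396 and 405 CPM at ZT 10 and 42.7, 48.7, 76.4 and 129 CPM at ZT 22 (log2 -2.26 ± 0.28, adjusted p = 2.8e-08). *Slc22a5*, the carnitine transporter, was 2.16-fold lower (adjusted p = 1.5e-07) and *Cpt1a*, the liver form of carnitine palmitoyltransferase, 1.70-fold lower (adjusted p = 0.000422). The list's median was -0.06. Of 44 genes of the mitochondrial carrier family, 1 was higher and 7 were lower (4 without replicate 3 at ZT 22). *Slc25a32*, the folate and FAD carrier, was higher by 0.97 (SE 0.15, adjusted p = 4.2e-06). *Slc25a22*, a glutamate carrier, had 97.2, 87.1, 119 and 104 CPM at ZT 10 and 46.9, 49.2, 55.2 and 52.2 CPM at ZT 22 (log2 -1.004 ± 0.13, adjusted p = 6.8e-08), and *Slc25a42*, for coenzyme A, and *Slc25a33*, for pyrimidine nucleotides, were lower by 1.13 and 0.90 (adjusted p = 3.1e-05 and 2.1e-05).

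Of 48 genes of glucose uptake, glycolysis, pyruvate and glycogen, 6 were higher and 3 were lower, and the 6 became 3 without replicate 3 or 4 at ZT 10 or replicate 1 or 2 at ZT 22, while the 3 became 1 without replicate 3 and 5 without replicate 4 at ZT 22. *Slc2a4*, which encodes the insulin-responsive transporter GLUT4, had 552, 457, 493 and 592 CPM at ZT 10 and 1000, 876, 882 and 791 CPM at ZT 22 (log2 0.76 ± 0.16, adjusted p = 0.000335), and *Pfkp*, a phosphofructokinase, rose by 0.84 (SE 0.15, adjusted p = 4.8e-05). *Pdp1*, which activates pyruvate dehydrogenase, rose by 0.66 (adjusted p = 0.00174; 0.0226 without replicate 1 at ZT 10). *Pck1*, for the enzyme of glyceroneogenesis, had 6196, 5840, 5504 and 6552 CPM at ZT 10 and 773, 1206, 1110 and 2690 CPM at ZT 22 (log2 -2.06 ± 0.46, adjusted p = 0.00096). Of 31 insulin signaling genes, 1 was higher, a share no larger than the 4.16% over all genes, and 4 were lower. *Tbc1d4*, the AKT substrate that holds GLUT4 inside the cell, had 97.4, 82.9, 82.5 and 98.3 CPM and then 179, 179, 189 and 222 CPM (log2 1.09 ± 0.11, adjusted p = 4.5e-11). *Akt1* was lower by 0.67 (SE 0.08, adjusted p = 4.7e-09), *Foxo1* by 0.97 (SE 0.20, adjusted p = 0.000448) and *Irs2*, an insulin receptor substrate, by 2.12 (SE 0.46, adjusted p = 0.00075). Without replicate 4 at ZT 22, 3 of the 31 were higher.

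Among genes known to respond to glucocorticoids, 8 of 22 were lower and 2 were higher (median -0.49), with 6 lower and 1 higher without replicate 1 or 2 at ZT 22 and with the muscle covariate. The metallothionein gene *Mt2* had 14.7, 12.5, 28.9 and 32.5 CPM at ZT 10 and 1.04, 0.887, 2.01 and 3.71 CPM at ZT 22 (log2 -3.41 ± 0.42, adjusted p = 1.2e-08; -4.16 without replicate 4 at ZT 22), and *Mt1* fell from 192, 193, 251 and 277 CPM to 56.4, 53.6, 70.4 and 113 CPM (log2 -1.63 ± 0.23, adjusted p = 2.4e-07). *Klf15*, a factor of amino acid and lipid metabolism, had 54.4, 56.7, 61.7 and 61.8 CPM and then 7.41, 11.1, 10.03 and 17.7 CPM (log2 -2.29 ± 0.32, adjusted p = 2.5e-07). *Sgk1*, a kinase gene, was lower by 1.48 (SE 0.25, adjusted p = 1.3e-05) and *Ddit4*, an inhibitor of mTORC1, by 2.15 (SE 0.42, adjusted p = 0.000181). *Per1* belongs to this list and to the clock list. The members that were higher were *Cdkn1a* and the phosphatase gene *Dusp1*. In the list of ATF4 targets, 1 of 17 was higher (*Fgf21*) and 2 were lower (*Ddit4* and *Sesn2*).

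Of 26 immediate early genes, 5 were higher and 2 were lower, and leaving out single libraries gave 3 to 6 higher and 0 to 2 lower. *Maff*, a small MAF factor, had 4.12, 3.28, 3.23 and 3.39 CPM at ZT 10 and 44.0, 28.8, 24.6 and 13.98 CPM at ZT 22 (log2 2.95 ± 0.32, adjusted p = 5.6e-10). *Fosl2*, of the FOS family, rose by 1.23 (SE 0.19, adjusted p = 3.8e-06) with overlapping ranges, and *Ier5* by 1.21 (adjusted p = 0.000844), while *Ier3* was lower (log2 -1.12, adjusted p = 0.00259). *Lep*, the satiety hormone gene that marks white adipocytes, was 5.64-fold higher, at 162, 205, 136 and 86.0 CPM against 35.7, 37.1, 14.8 and 16.8 CPM (log2 2.49 ± 0.40, adjusted p = 6.8e-06). Of 7 white adipocyte markers tested, *Lep* was higher, the amino acid transporter gene *Slc7a10* was lower (log2 -1.66 ± 0.33, adjusted p = 0.000247), and 5 were not called. In the matrix list, the collagen chaperone gene *Serpinh1* (log2 1.35 ± 0.19, adjusted p = 6.3e-07) and the prolyl hydroxylase gene *P4ha1* (log2 1.47 ± 0.16, adjusted p = 1.1e-09), were higher, whereas 0 of 36 collagen genes were called. *Gss*, glutathione synthetase, was higher by 1.42 (adjusted p = 5.8e-06), but its exons overlap those of *Acss2* on the other strand, which had a mean of 1350 CPM. Endothelial markers were higher in 2 of 10, *Cldn5* (log2 1.46 ± 0.24, adjusted p = 7.7e-06) and *Pecam1* (log2 0.35 ± 0.09, adjusted p = 0.00384), with summed levels of 600 to 668 CPM at ZT 10 and 725 to 785 CPM at ZT 22.

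Large parts of the energy machinery showed no called difference. In edgeR's test 0 of 18 tricarboxylic acid cycle genes, 0 of 37 nuclear genes of complex I, 0 of 40 of complexes III to V, 0 of 76 cytosolic ribosomal proteins, 0 of 38 proteasome subunits, 0 of 7 creatine genes, 0 of 22 interferon-stimulated genes and 0 of the 8 tested of 13 proteins of the mitochondrial genome were called. Of these 246 genes, 12 had an unadjusted p below 0.05 in that test, beside 4841 of all 20249 genes tested. DESeq2 and limma-voom called 0 of the 246 as well. Of the 12, 6 were proteasome subunits, and without replicate 4 at ZT 22, 1 proteasome subunit was called lower. The lists' median log2 differences lay between -0.17 for the interferon-stimulated genes and 0.04 for the tricarboxylic acid cycle. The members with the smallest p were *Mdh2* (log2 0.12), *Ndufab1* (0.19), *Uqcc1* (0.28), *Rpl3* (-0.17), *Psma7* (-0.34), *Slc6a8* (0.44), *Tap1* (-0.64) and *mt-Nd1* (-0.25). Macrophage, lymphocyte, stromal, Schwann cell and erythroid markers gave 0 calls too.

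**Figure D3:**
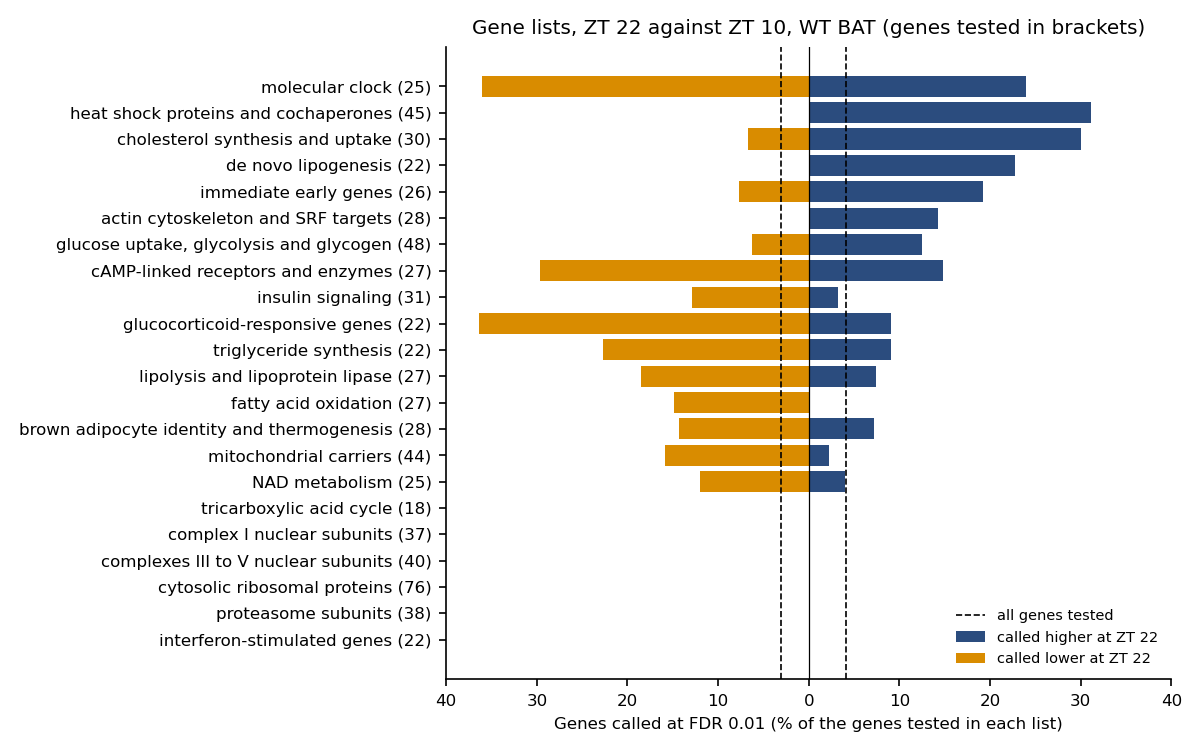
Share of the tested genes of 22 lists called higher (right, blue) or lower (left, orange) at ZT 22 at an FDR of 0.01, with the number tested in brackets and dashed lines at 4.16 and 3.1%, the shares over all genes tested. The heat shock and lipogenesis lists extend to the right only. The sterol list lies mostly to the right, with 2 of 30 lower, and the glucocorticoid list mostly to the left, with 2 of 22 higher. The clock list extends to both sides, and 6 lists are at 0.

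Some calls lay near the threshold. Besides those given above, leaving out 1 library at a time ended the call of *Mrpl50* for 7 (0.0113 to 0.0427), of *Apln* (0.0155 to 0.0446), *Gclm* (0.0154 to 0.037) and *Plod1* (0.0111 to 0.0407) for 6 each, of *Gclc* (0.0125 to 0.0264), *Actn4* (0.0135 to 0.0324), *Wee1* (0.0118 to 0.022), *Ier3* (0.012 to 0.0203) and *Pecam1* (0.0138 to 0.0204) for 4 each and of *Sesn2* for 3 (0.0139 to 0.0177). The log2 difference of *Mrpl50*, 0.50 with all libraries, was 0.43 to 0.57 in these fits, and that of *Gclm*, -0.68, was -0.61 to -0.74. The call of the actin gene *Actg1* (log2 0.91, adjusted p = 0.000609) was lost without replicate 1 at ZT 22 (0.0388), the library with the highest value, 104 CPM against 40.8 to 62.7 CPM in the other three. Of 112 genes named here and called in the WT BAT comparison, 85 kept that call under every alternative of scaling, filter, tool, samples and covariate tried. Single-gene calls of a difference from FANKO BAT or WT eWAT, given below, were not checked in this way.

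The other sampled times of WT BAT place these differences in the day. Of the 843 genes higher at ZT 22, 610 (72.4%) had their highest mean at ZT 22 and 222 (26.3%) at ZT 18, and 634 (75.2%) had their lowest mean at ZT 10. Of the 627 lower genes, 458 (73.0%) were highest at ZT 10 and 491 (78.3%) lowest at ZT 22. Since both groups were chosen by the contrast, these shares only say where ZT 6 and ZT 18 lie. *Dbp* was already at 47.9 CPM at ZT 6 and was down to 5.10 CPM at ZT 18. *Nr1d1* peaked before the window, at 67.8 CPM at ZT 6, and reached 6.72 CPM at ZT 18, so the ZT 10 to ZT 22 difference spans only part of its swing. *Hspa8* stood at 184 and 1120 CPM, and *Cry1* at 6.47 and 45.6 CPM, at ZT 6 and ZT 18. *Tshr*, at 15.4 and 22.7 CPM, lay between its ZT 10 and ZT 22 values at both times.

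**Figure D4:**
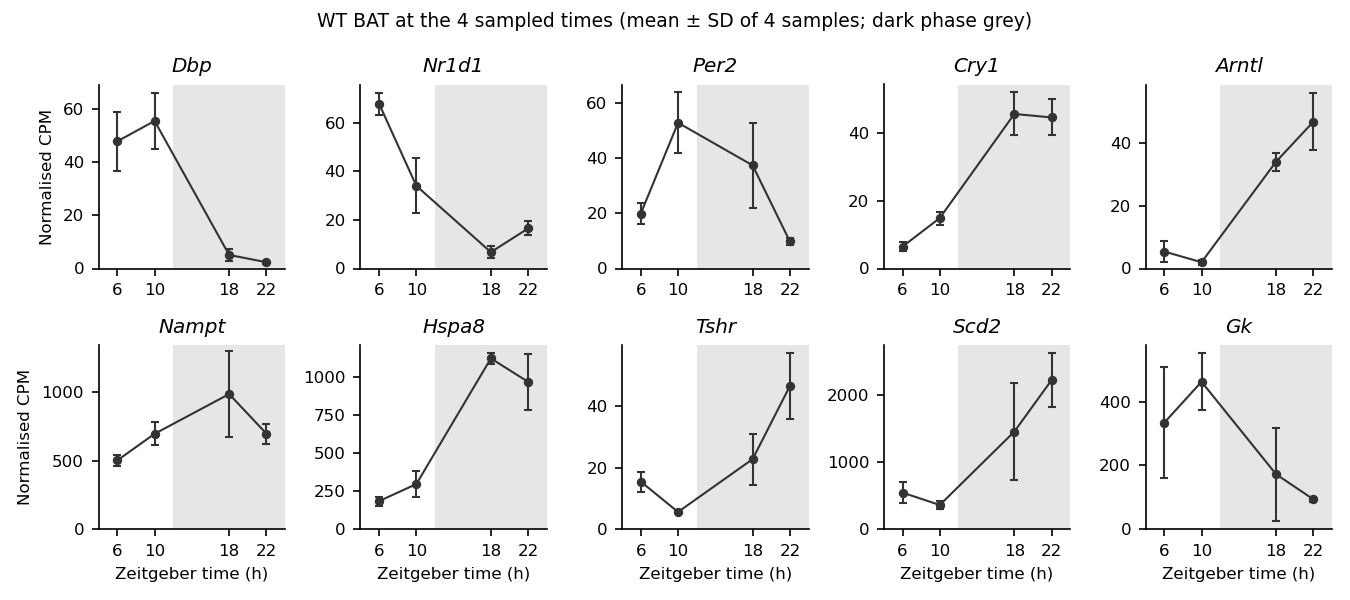
Normalised CPM (mean ± SD of 4 samples) of 10 genes in WT BAT at ZT 6, 10, 18 and 22, with the dark phase in grey. Dbp and Per2 are high at ZT 10 and low at ZT 22, Arntl and Tshr are lowest at ZT 10 and highest at ZT 22, and Nampt is equal at these times with a higher mean at ZT 18.

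Whether the time difference depended on *Nampt* in fat was asked by testing the difference between WT BAT and FANKO BAT in the change from ZT 10 to ZT 22. This test called 122 of 20249 genes (0.602%). It uses the same 8 WT BAT samples as the comparison above, so each group's own change is given side by side. The split was 82 more positive and 40 more negative in WT BAT, and 43 and 11 with scaling by library size alone. Among the 843 genes higher in WT BAT, the median change in FANKO BAT was 0.21, with the same sign for 740 (87.8%). Among the 627 lower it was -0.20, with the same sign for 547 (87.2%). Both sets were chosen by their change in WT BAT, and that choice alone can make the change in another group smaller. In WT eWAT, where *Nampt* is intact, the medians of the same sets were 0.1997 and -0.1164. The sign was the same for 75.8% and 63.96%. Each group's own change was called in the same direction for 30 of the 843 and 52 of the 627 in FANKO BAT. In WT eWAT it was called for 148 and 77. Over all genes tested, the own change was called for 125 genes in FANKO BAT and 941 in WT eWAT. Whether the FANKO BAT medians and counts reflect the loss of *Nampt* was not tested. With the muscle covariate 46 genes were called, 45 of them among the 122. Without replicate 1 or 4 at ZT 10 there were 79 and 76 calls (78 and 75 shared), and without replicate 1 or 2 at ZT 22 there were 75 and 71 (74 and 68 shared). Of the 15 muscle markers, 3 were called here, their median change being -3.87 in WT BAT and 3.10 in FANKO BAT.

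*Tshr* gave the smallest p. In FANKO BAT it had 11.1 ± 1.30 CPM at ZT 10 and 14.5 ± 4.05 CPM at ZT 22 (SD, n = 4), a log2 change of 0.36 beside 3.05 in WT BAT (difference 2.68 ± 0.26, adjusted p = 8.8e-10). *E2f2* changed by 0.86 beside 4.15 (adjusted p = 2.1e-07), with a ZT 10 level of 9.46 ± 0.68 CPM in FANKO BAT. *Arntl* went from 10.02 ± 1.496 to 24.1 ± 2.21 CPM, a log2 change of 1.28 beside 4.48 (difference 3.20 ± 0.39, adjusted p = 2.3e-07). The other clock genes called were *Clock* (difference 0.64, adjusted p = 0.00421) and *Cry1* (1.04, adjusted p = 0.00143). *Dbp*, at -2.89 beside -4.48, was not (adjusted p = 0.0157), and neither was *Per3*, at -2.01 beside -2.41 (0.629). *Dhrs3*, *Dapk1*, *Dtx4*, the Mediator gene *Med12l* and *Akt1* completed the 8 smallest p, and *Akt1*, which fell by 0.67 in WT BAT, changed by 0.07 in FANKO BAT (adjusted p = 3.2e-05). Of the heat shock genes 4 differed, among them *Hspa4l* (difference 1.00, adjusted p = 0.000263), *Stip1* (0.76, 0.00123), *Hsp90aa1* (1.04, 0.00137) and *Hspb1* (1.70, 0.00104), whereas *Hsph1* did not pass (0.49, 0.549). *Adrb3* (1.22, 0.00886), *Sqle* (1.78, 0.0075) and *Elovl5* (0.99, 0.00824) differed as well, and *Gk* (-1.71, 0.0756) and *Ehhadh* (-0.19, 0.952) did not pass.

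Whether the difference was shared by white fat was asked with the same model against WT eWAT. The labels do not say whether BAT and eWAT samples came from the same mice. The model took them as independent, so a pairing of depots, if there was one, was ignored. This test called 552 genes (2.73%), and 253 were more positive and 299 more negative in BAT, with 160 and 104 after scaling by library size alone. In 21 genes the changes were called in both depots with opposite signs. Among the clock genes, *Arntl* changed by 4.48 in BAT and 4.95 in eWAT (adjusted p of the difference = 0.658), *Dbp* by -4.48 and -4.52 (1) and *Cry1* by 1.57 and 1.59 (1), with differences of -0.47 ± 0.43, 0.05 ± 0.40 and -0.01 ± 0.20 (SE). *Nr1d1* did differ, at -1.04 in BAT and -4.01 in eWAT (difference 2.96 ± 0.37, adjusted p = 3.4e-07), where it went from 60.8 ± 8.47 to 3.84 ± 1.09 CPM. The other clock gene called was *Btrc* (difference 0.60, adjusted p = 0.000181).

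*Tshr* again gave the smallest p, with a change of 0.27 in eWAT from a level of 149 ± 5.89 CPM (difference 2.78 ± 0.25, adjusted p = 4e-11). The other genes with the 8 smallest p were *Med12l*, *Gpr157*, *Nr1d1*, *Atp6v0a2*, *Baiap2*, *Slc25a22* and *Pdzd2*. *Gpr157*, an orphan receptor, was not called in BAT (log2 0.33, adjusted p = 0.121) and was lower at ZT 22 in eWAT (-1.24). *Baiap2*, which binds actin regulators, rose by 1.75 in BAT and changed by -0.16 in eWAT (adjusted p = 3.4e-07), and *Atp6v0a2*, of the vacuolar proton pump, changed by -0.33 and 0.46 (3.4e-07). Several lipid genes that were lower in BAT differed from eWAT: *Ehhadh* (-2.26 and -0.02, adjusted p of the difference = 0.000121), *Gk* (-2.31 and 0.38, 0.000788), *Gpat4* (-1.78 and -0.48, 0.000277), *Abhd5* (-1.05 and 0.16, 0.000147) and *Ffar4* (-2.002 and 0.04, 0.000138). Of the glucocorticoid-responsive list 3 of 22 differed, *Mt2* (-3.41 and -0.35, 0.000137), *Mt1* (-1.63 and -0.09, 0.000848) and *Klf15* (-2.29 and -0.22, 0.000895). *Adrb3* differed too (1.03 and -0.24, 0.00173). For *Acsl1*, *Pck1* and *Pfkp* the changes were -1.16 and -1.27, -2.06 and -2.06, and 0.84 and 0.85, and their differences did not pass.

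**Figure D5:**
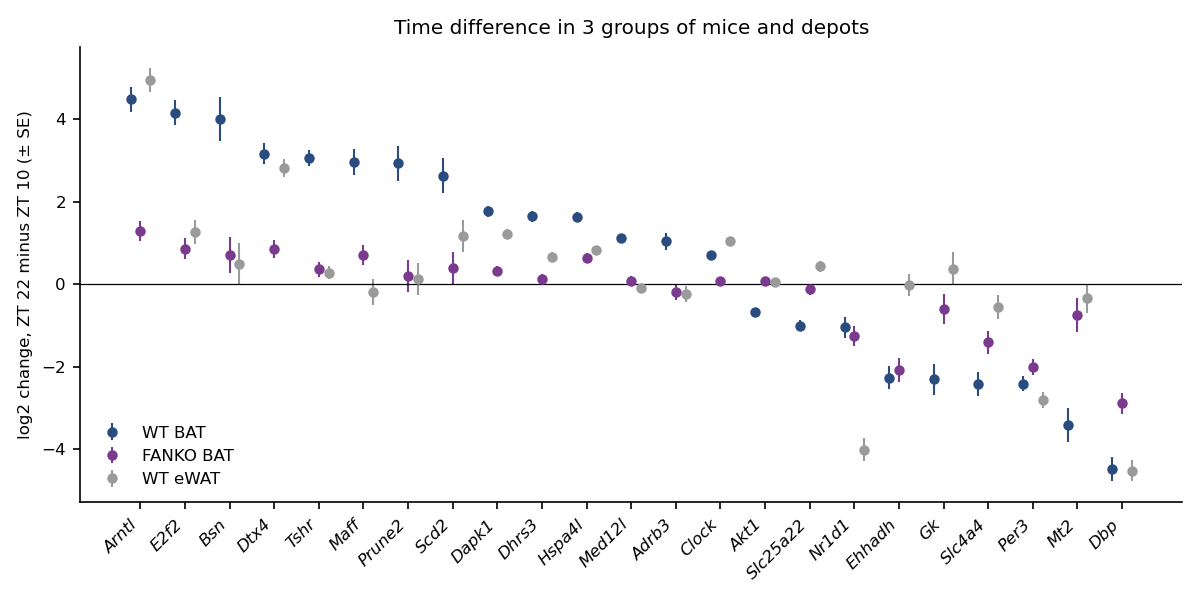
Log2 change from ZT 10 to ZT 22 (point, ± SE) of 23 genes in WT BAT, FANKO BAT and WT eWAT. Tshr, E2f2, Bsn, Maff, Prune2, Med12l, Akt1 and Adrb3 stand away from 0 in WT BAT and closer to it in both other groups, and the eWAT point of Nr1d1, at -4.01, lies far below the BAT points.

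Promoter windows were matched to the called genes by symbol, from 250 bases before to 50 bases after each RefSeq start, for 609 of the 843 higher, 481 of the 627 lower and 12762 of the 20249 tested genes. Both strands were searched, a gene counted once if any of its windows held the letters, and the shares were not tested. The E-box CACGTG was in 14.6% of the higher, 17.7% of the lower and 10.9% of all tested genes with a window, and the D-box TTATGTAA in 0.328, 0.832 and 0.838%. The RORE TAGGTCA was in 3.45, 3.12 and 2.38%, the heat shock element GAANNTTC in 7.22, 5.20 and 7.23%, and the cyclic AMP element TGACGTCA in 3.94, 4.37 and 3.16%.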

How the data were processed

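RNA-seq of 64 mouse fat samples was analysed, and the samples compared here were the WT BAT samples at ZT 10 and ZT 22, 4 each, grouped by their labels. The authors deposited raw counts per gene, which per the submitters' processing notes came from STAR 2.5.3a on GRCm38.p5 and featureCounts 1.5.3. The strand and multi-mapping settings of the counting are not given in the sources used here. Symbols were matched to 52489 of 52636 gene IDs.

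Genes passing filterByExpr over the 16 groups (minimum count 10, minimum total 15) were kept, 20249 in all, leaving out 32387. Counts were TMM-scaled and fitted in edgeR 4.0.16 (R 4.3.3) with the quasi-likelihood test and 16 group means over all 64 samples, so that all groups share 1 estimate of the spread; contrasts were ZT 22 minus ZT 10 in WT BAT and that change minus the change in FANKO BAT, or minus that in WT eWAT; the FDR threshold was 0.01. The fit was also run on simulated counts with the same spread for every gene and independent libraries, which the real libraries need not have. That run checks the code and not the error rate in these data. Total counts limit the precision of low genes. The gene lists and comparison were chosen with earlier results of these data known, so no list is independent evidence.

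Named genes were the clock list and *Nampt*, the 12 largest increases and 12 largest decreases among called protein-coding or lncRNA genes with a mean of at least 1 log2 CPM and groups that did not overlap, the 8 smallest p of each test, and up to 4 called members of each list by smallest p (where none was called, the member with the smallest p). *Hspb1*, *Hsph1*, *Ucp1*, *Dio2*, *Ppargc1a*, *Mcm2* and *Dusp1* were named after their values were seen. Some genes that the rule takes are not reported here. Alternatives were an FDR of 0.05, no filter or 1 CPM in 4 samples, RLE or library size scaling, limma-voom (limma 3.58.1), DESeq2 1.42.0, robust dispersion, a replicate block, fewer samples and each WT BAT library left out; leaving out mitochondrial genome genes and adding the muscle score were chosen after the data had been seen.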

Additional observations from a re-analysis of the deposited data

Results flagged for a closer look

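Single samples stood apart from the other three of their group in 15 of 272 groups of 4 examined by Dixon's test, and chance alone gives about 1 in 20. On the log2 CPM scale these were *Per1* (2.24, replicate 2 at ZT 22), *Cry2* (5.02, replicate 4 at ZT 22), *Bhlhe40* (7.11, replicate 4 at ZT 22), *Bsn* (1.98, replicate 4 at ZT 22), *Gpam* (8.61, replicate 1 at ZT 22), *Pdp1* (3.79, replicate 3 at ZT 22) and *Ier5* (3.22, replicate 3 at ZT 22). At ZT 10 they were *Acot4* (4.45, replicate 2), *Slc25a51* (9.52, replicate 3), *Wee1* (4.34, replicate 2) and *Ndufab1* (7.42, replicate 4). *Acsl1* had one at each time, 12.1 in replicate 3 at ZT 10 and 11.3 in replicate 4 at ZT 22. Skeletal muscle markers took 0.0386% of the counts in replicate 4 at ZT 10 and 0.00135% in replicate 4 at ZT 22.

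The change from ZT 10 to ZT 22 differed between WT BAT and FANKO BAT for 122 genes in edgeR's test of the difference. The change was more positive in WT BAT, on the log2 scale of the difference, for *Arntl* (3.2), *Clock* (0.638), *Cry1* (1.04), *E2f2* (3.29), *Bsn* (3.3), *Dtx4* (2.3), *Tshr* (2.68), *Maff* (2.26), *Prune2* (2.73), *Hspa4l* (0.997), *Dapk1* (1.44), *Dhrs3* (1.51), *Med12l* (1.03), *Baiap2* (1.27), *Stip1* (0.762), *Hsp90aa1* (1.04), *Elovl5* (0.991), *Sqle* (1.78), *Tbc1d4* (0.713), *Adrb3* (1.22) and *Hspb1* (1.7). It was more negative for *Mt2* (-2.67), *Akt1* (-0.739), *Atp6v0a2* (-0.443), *Slc25a22* (-0.878) and *Abca1* (-0.736).

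It differed between WT BAT and WT eWAT for 552 genes. The change was more positive in WT BAT, on the log2 scale of the difference, for *Nr1d1* (2.96), *Btrc* (0.596), *E2f2* (2.89), *Bsn* (3.52), *Tshr* (2.78), *Maff* (3.15), *Prune2* (2.8), *Neurl1a* (3.0), *Hspa4l* (0.811), *Dhrs3* (0.985), *Med12l* (1.21), *Gpr157* (1.57), *Baiap2* (1.91), *Pdzd2* (1.89), *Stip1* (0.637), *Npr1* (0.755), *Plin3* (0.952), *Pdp1* (0.98), *Tbc1d4* (0.892), *Adrb3* (1.27) and *Hspb1* (1.79). It was more negative for *Mt2* (-3.06), *Igfals* (-3.16), *Slc4a4* (-1.88), *Gk* (-2.68), *Akt1* (-0.709), *Atp6v0a2* (-0.785), *Slc25a22* (-1.44), *Slc25a51* (-0.923), *Dnajb9* (-1.66), *Irf4* (-1.53), *Ffar4* (-2.04), *Gpat4* (-1.3), *Gpam* (-0.905), *Abhd5* (-1.21), *Fitm2* (-0.922), *Ehhadh* (-2.24), *Slc22a5* (-0.96), *Mt1* (-1.54), *Klf15* (-2.07), *Apln* (-1.98) and *Dio2* (-4.67).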

How the results depend on the processing

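The WT BAT comparison called 1470 genes, and 2527 at an FDR of 0.05 and 940 with scaling by library size alone; its other alternatives stayed between 987 and 1629, and leaving out single libraries gave 1032 to 1573. The difference from FANKO BAT was called for 122 genes, and for 322 at an FDR of 0.05, 54 with library size alone, 201 in DESeq2, 37 with only the 32 BAT samples and 46 with the muscle score as a covariate, which was chosen after the data had been seen; without single libraries it was 71 to 152. The difference from WT eWAT was called for 552 genes, and for 1233 at an FDR of 0.05, 264 with library size alone and 362 with only the 32 WT samples; without single libraries it was 390 to 571. The cause of these changes was not tested. Same-numbered ZT 10 and ZT 22 samples deviated together weakly (r = 0.0511 to 0.153), and pairs with unlike numbers gave r = -0.164 to 0.102. Of the ZT 10 samples, 2 of 4 correlated best with their own number. With the replicate block the 3 counts were 1606, 134 and 686. The labels do not say what the numbers stand for, and whether same-numbered samples share a batch was not tested. In the WT BAT comparison, of 2637 combinations of a named gene with an alternative, 2522 kept their side of the threshold. A call was lost in 110 and gained in 5, and 0 changed direction. At 8299625 to 22842220 counts a library, genes near 1 CPM such as *Fgf21* and *Npas2* rest on few reads at ZT 10.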
